A study of Mus musculus with 6 samples.

Results

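H3K56ac, histone H3 acetylated on the lysine called K56, was examined at the microRNA genes that mark embryonic stem cells and at the let-7 genes, whose mature products build up when cells differentiate. Members were chosen by name and position: microRNA genes of GENCODE M21 (mm10) named Mir290 to Mir295, Mir302, Mir17hg or Mirlet7 followed by a letter, and every H3K56ac peak with a base within 20 kb of one of them. The names gave 25 genes, 14 at the stem cell clusters and 11 let-7 genes, against 2202 genes of type miRNA in the annotation. The distance gave 11 of the 11106 peaks, 5 near the stem cell clusters and 6 near let-7 genes.

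The cells were V6.5, a single line of mouse embryonic stem cells (mESCs), grown undifferentiated on feeder cells with LIF. They had been infected with lentivirus carrying either a scrambled shRNA (Scramble) or an shRNA to Sirt6 (Sirt6 KD), SIRT6 being a deacetylase of this residue. The 6 ChIP-seq libraries were 2 H3K56ac libraries and 1 input for Scramble cells and the same numbers for Sirt6 KD cells. The study asked what loss of Sirt6 does to H3K56ac, but the peak positions analysed here were a single set merged over libraries, with no height, count or depth, so Scramble and Sirt6 KD cannot be told apart in any value below. There is then no replicate spread either, every value is a description without a test, and confidence intervals (Wilson, 95%) cover counting error only. A peak may come from Scramble or from Sirt6 KD cells alone. At its own threshold, the paper lists more peaks for each Sirt6 KD library than for either Scramble library.

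A microRNA is cut from a hairpin in a longer primary transcript, first by DROSHA with DGCR8 in the nucleus and then by DICER1 in the cytoplasm, and its seed, the bases near its 5′ end, pairs with target mRNAs. The Mir290 to Mir295 and Mir302 clusters are expressed in pluripotent cells, where their shared seed represses inhibitors of the start of DNA synthesis, and Mir17hg is the host transcript of the growth-promoting miR-17 to miR-92 cluster. The let-7 precursors are transcribed in many cells but in stem cells LIN28 proteins block their maturation, so that presence of a primary transcript does not mean presence of mature let-7.

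The mature sequences are shown because the seeds (bases 2 to 8, in capitals) tie the stem cell clusters to each other across chromosomes and separate them from let-7. They were taken from RefSeq on GRCm38, the assembly behind mm10, where 24 of 24 member microRNA genes were matched. The seed AAGUGCU was shared by products of the clusters on chromosomes 3 and 7:
miR-302b-3p: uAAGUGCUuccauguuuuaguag
miR-302d-3p: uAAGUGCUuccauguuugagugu
miR-291a-3p: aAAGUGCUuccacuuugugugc
miR-294-3p: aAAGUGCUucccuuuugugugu
miR-295-3p: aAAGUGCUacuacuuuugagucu
Close relatives within the same clusters differed in the last seed base or were shifted along it:
miR-290a-3p: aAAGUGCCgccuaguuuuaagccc
miR-291b-3p: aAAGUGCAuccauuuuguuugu
miR-302c-3p: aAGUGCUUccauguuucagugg
Inside Mir17hg, a pair of products carried the seed AAAGUGC, which overlaps the stem cell seed:
miR-17-5p: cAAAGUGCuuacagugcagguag
miR-20a-5p: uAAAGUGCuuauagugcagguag
All 8 let-7 forms printed here carried the seed GAGGUAG:
let-7a-5p: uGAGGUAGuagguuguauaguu
let-7b-5p: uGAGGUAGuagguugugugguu
let-7c-5p: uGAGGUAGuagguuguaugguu
let-7d-5p: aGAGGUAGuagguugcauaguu
let-7e-5p: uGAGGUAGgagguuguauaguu
let-7f-5p: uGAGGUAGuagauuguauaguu
let-7g-5p: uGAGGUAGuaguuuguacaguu
let-7i-5p: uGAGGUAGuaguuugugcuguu

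Among genes whose product with that seed was in the sequence table, all 5 genes with the AAGUGCU seed and all 7 with the AAAGUGC seed had a peak within 20 kb, against 6 of 13 genes with the let-7 seed. Of all genes of type miRNA in the annotation, 31.1% had a peak at that distance. Mir302a and Mirlet7a-2 were in the table with their other arm alone and are not in these counts, and Mirlet7a-2 had no peak within 20 kb. The let-7 seed genes included Mir98 beside Mirlet7f-2, 102350 bp from its nearest peak. The seed AUUGCAC, carried by miR-92a in Mir17hg and by miR-367 beside the Mir302 hairpins, was found in 7 genes, of which 6 had a peak within 20 kb. Genes that share a seed within a cluster share the same peaks and are not independent of each other.

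Stretches of reference sequence (mm10, plus strand) show what lay under the peaks. The first is the centre of the peak over the Mir290 to Mir295 hairpins, chr7:3219090-3219389, with the Mir292 hairpin in capitals:
Mir292: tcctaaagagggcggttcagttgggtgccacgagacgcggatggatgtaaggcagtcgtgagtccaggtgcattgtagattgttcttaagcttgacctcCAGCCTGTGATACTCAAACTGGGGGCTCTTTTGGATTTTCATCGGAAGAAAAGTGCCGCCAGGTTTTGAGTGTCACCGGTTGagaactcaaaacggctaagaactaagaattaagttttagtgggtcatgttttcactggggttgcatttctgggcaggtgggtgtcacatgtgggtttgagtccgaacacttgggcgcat
Upstream of that cluster, the middle one of its 3 peaks held a letter match to the octamer, a motif of POU5F1. Binding was not measured, and the match is in capitals within chr7:3213759-3213858:
Mir290-octamer: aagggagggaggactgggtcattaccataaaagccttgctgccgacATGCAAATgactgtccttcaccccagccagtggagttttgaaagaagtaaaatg
The centre of the peak nearest to the Mir302 cluster, chr3:127552938-127553237, is printed with its 26 CpG dinucleotides in capitals:
Larp7-Zgrf1: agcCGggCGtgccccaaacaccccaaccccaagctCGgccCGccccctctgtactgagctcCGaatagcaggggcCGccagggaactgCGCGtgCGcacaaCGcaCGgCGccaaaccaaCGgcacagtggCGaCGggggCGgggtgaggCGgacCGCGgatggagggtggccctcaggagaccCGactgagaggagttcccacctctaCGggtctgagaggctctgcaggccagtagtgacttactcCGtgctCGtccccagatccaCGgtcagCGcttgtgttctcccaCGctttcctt
The Mir17hg start lay inside its peak, and the stretch chr14:115042609-115042908 ends with the bases annotated as transcribed, in capitals:
Mir17hg: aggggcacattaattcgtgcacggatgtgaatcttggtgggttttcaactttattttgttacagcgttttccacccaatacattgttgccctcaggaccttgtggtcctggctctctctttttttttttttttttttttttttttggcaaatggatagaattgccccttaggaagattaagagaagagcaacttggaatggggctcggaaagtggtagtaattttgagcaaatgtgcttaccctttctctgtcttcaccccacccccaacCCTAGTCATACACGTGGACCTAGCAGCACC
For let-7, chr10:122986722-122986821 covers the edge of the peak beside Mirlet7i, with an E-box, a site of MYC and related factors, in capitals:
Mirlet7i-E-box: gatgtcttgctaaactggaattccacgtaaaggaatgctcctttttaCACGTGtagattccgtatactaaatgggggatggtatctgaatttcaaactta

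Every stem cell cluster gene lay within 20 kb of an H3K56ac peak, 14 of 14, while 6 of the 11 let-7 genes did (54.5%). Over all genes of type miRNA the share was 31.1%. A peak covered part of the gene itself at 9 of the 14 stem cell cluster genes and at none of the 11 let-7 genes, against 4.09% of all genes of type miRNA. Of the 9, 8 were hairpin genes of the Mir290 to Mir295 cluster under the same peak. The other was Mir17hg, a host transcript of 3849 bp that is not of type miRNA. Its 6 hairpins lay 557 to 1313 bp from the peak and were not covered. Neighbouring hairpins share their surroundings, so genes of a group less than 10 kb apart were joined into loci, 3 stem cell and 8 let-7. All 3 stem cell loci had a peak within 20 kb (100%, 43.9 to 100%), and 4 of 8 let-7 loci did (50.0%, 21.5 to 78.5%), against 32.5% of 1802 microRNA loci. The intervals of the groups overlap, and both rest on few loci.

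The distance from locus to nearest peak was 0 bp for the Mir290 to Mir295 cluster and for Mir17hg and 6218 bp for the Mir302 cluster. For the let-7 loci it ran from 1007 to 398122 bp with a median of 54858 bp, against 54909 bp over all microRNA loci. The let-7 median falls in a gap between 6473 and 103243 bp and was 127450 bp without peaks under 500 bp and 123938 bp without peaks at protein-coding starts. The plot of these distances shows the stem cell loci in the near part of the range and the let-7 loci spread along it.

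**Figure D1:**
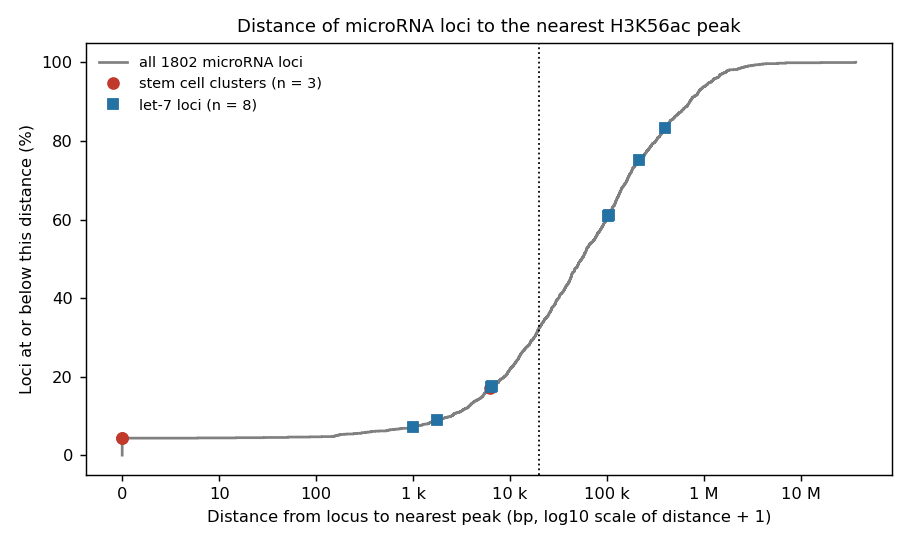
Cumulative share of microRNA loci (vertical axis, %) by distance to the nearest H3K56ac peak (horizontal axis, bp, log10 scale of distance + 1), with all 1802 loci as the grey line, 3 stem cell loci as red circles, 8 let-7 loci as blue squares and a dotted line at 20 kb. The stem cell loci lie at 0, 0 and 6218 bp, the symbols of the first pair fall on the same point, and the let-7 loci extend to 398122 bp.

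H3K56ac was most extended at the Mir290 to Mir295 cluster, a run of 9 annotated hairpin genes in 2216 bp (chr7:3218626-3220841). Their products make up much of the microRNA of mouse embryonic stem cells. The cluster lies on the plus strand apart from Mir290b and Mir292b, which are annotated on the minus strand opposite Mir290a and Mir292. It had 3 peaks within 20 kb, where 5.16% of microRNA loci had at least 3.

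The peak farthest upstream, chr7:3200026-3207341, was 7316 bp wide and ended 11285 bp before Mir290a. It ranked 28 by width among all peaks, and 99.7% of peaks were narrower. The middle peak, chr7:3209930-3215112, was 5183 bp wide, ranked 121 and ended 3514 bp before Mir290a.

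The downstream peak, chr7:3217726-3220755, was 3030 bp wide, began 900 bp before Mir290a and overlapped 8 of the 9 genes. It ended 18 bp before Mir295, the last hairpin of the cluster, so the border of the peak nearly coincided with the end of the cluster. The printed Mir292 sequence lies at its centre.

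The 3 peaks were separated by gaps of 2588 and 2613 bp, and 74.9% of their 20730 bp span was in peaks. Downstream, the next peak was 69628 bp from the cluster, so the mark lay over and upstream of the hairpins in the direction of their transcription. None of the 3 peaks was at the start of a protein-coding gene: their midpoints were 30373 to 37092 bp from the nearest such start, at AU018091 or Nlrp12. The midpoint of the downstream peak fell in an annotated exon of Nlrp12, an inflammasome-related gene on the opposite strand, and the starts of Nlrp12 itself were 28858 bp or more from any peak. The other midpoints were intergenic.

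**Figure D2:**
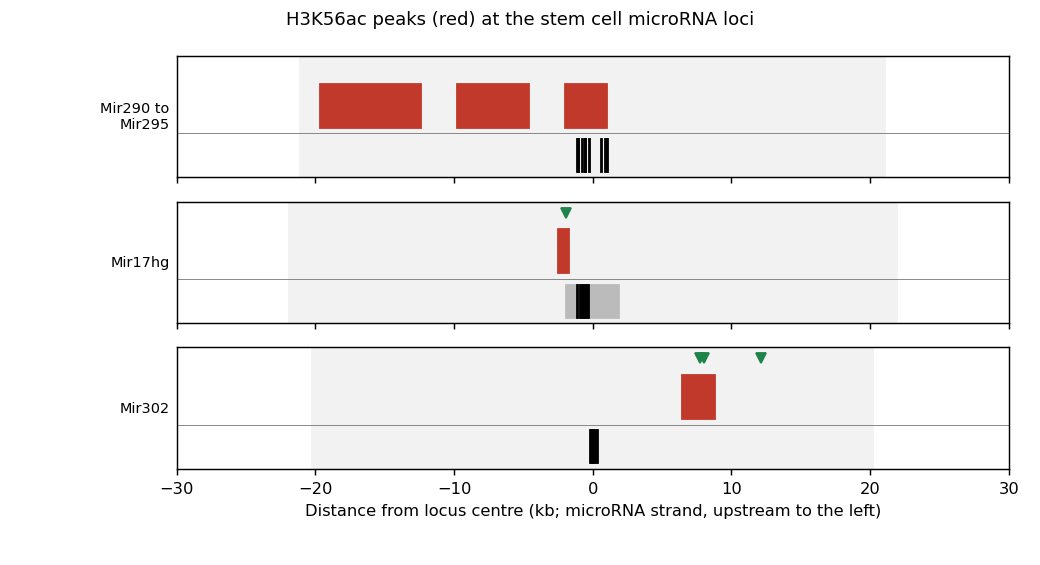
H3K56ac peaks (red boxes) around the 3 stem cell loci by distance from the locus centre (kb, in the direction of the microRNA strand). Black boxes are microRNA hairpins, the grey box is Mir17hg, green triangles are annotated starts within 5 kb of a member peak, and light shading is the locus and 20 kb on either side. The Mir290 to Mir295 cluster has 3 peaks over 20730 bp that end at the cluster, Mir17hg 1 peak at its start, and the Mir302 cluster 1 peak on its downstream side.

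Peaks of at least 3 kb made up 6.83% of the set (759 peaks) and 5.12% of the 3382 distal peaks. Distal peaks were those with a midpoint more than 3 kb from every protein-coding start. The median width was 913.5 bp over all peaks and 639.5 bp over distal ones, and each of the 3 peaks at the Mir290 to Mir295 cluster was above 3 kb. The span of this run itself, 20730 bp, was taken as the limit. Among peaks of at least 3 kb, the whole set then held 3 runs of 3 successive peaks, this one included. Narrower peaks were set aside first and may lie within a run. That limit was chosen from the run it describes, so the count says nothing of how unusual the run is. The others lay near Sept1 on chromosome 7 and near Cdh1, the E-cadherin gene, on chromosome 8. The run at the Mir290 to Mir295 cluster was the only 1 of the 3 whose peaks were all distal to protein-coding starts.

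Within 20 kb of the Mir290 to Mir295 cluster, 36.8% of bases were in peaks, rank 2 among the 1802 microRNA loci. The locus of Mir1192 on chromosome 19 was higher at 36.9%, and Mir7003 (35.9%) and Mir8110 (35.2%) followed. The mean over all loci was 1.90% and the median was 0%.

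The 4 hairpins of the Mir302 cluster (chr3:127545228-127545689, plus strand) had 1 peak, and it lay at a protein-coding start instead of at the hairpins. The cluster sits inside Larp7, which encodes a 7SK RNA-binding protein and is transcribed from the opposite strand. The peak, chr3:127551907-127554270, was 2364 bp wide and contained the divergent starts of Larp7 (chr3:127553197) and Zgrf1 (chr3:127553489), the former 109 bp from its midpoint. Its distance was 6606 bp from Mir302b, 6477 bp from Mir302c, 6343 bp from Mir302a and 6218 bp from Mir302d, on their downstream side. Mir367, the last hairpin of the cluster, was 6100 bp away.

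Upstream of the Mir302 cluster, where its own primary transcript would begin, no peak was found for 287568 bp. The share of bases in peaks within 20 kb was 5.84%, rank 225 of 1802. When peaks at protein-coding starts were left out, the Mir302 cluster had no peak within 20 kb and 2 of the 3 stem cell loci kept one. The printed sequence of this peak was rich in CpG, with a GC content of 66.7% over the 300 bp.

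Mir17hg (chr14:115042879-115046727, plus strand) had 1 narrow peak over its annotated start. The peak, chr14:115042262-115043114, was 853 bp wide, its midpoint was 191 bp from the start, and 46.6% of all peaks were narrower. The 6 hairpins of the host transcript followed 557 bp (Mir17) to 1313 bp (Mir92-1) downstream of it. No other peak lay within 9089098 bp upstream or 621898 bp downstream, so the Mir17hg peak stood alone in its region. The nearest protein-coding start was that of Gpc5, 49527 bp from its midpoint. The share of bases in peaks within 20 kb was 1.95%, close to the mean over all microRNA loci.

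The 2 related clusters that arose as copies of miR-17 to miR-92 were also near peaks. All 6 genes of the miR-106a to miR-363 cluster on the X chromosome lay 154 bp (Mir106a) to 954 bp (Mir363) from a single peak. On that chromosome 8 of 97 microRNA loci (8.25%) had a peak within 20 kb. All 3 genes of the miR-106b to miR-25 cluster, hosted by a protein-coding gene on chromosome 5, lay 3484 to 3686 bp from a peak.

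The 8 let-7 loci divided evenly into 4 with a peak within 20 kb and 4 without. Their 6 peaks were 395 to 2340 bp wide with a median of 972.5 bp, none reached 3 kb, and 3 of them were within 1 kb of a protein-coding start. The 5 stem cell peaks were 853 to 7316 bp wide with a median of 3030 bp, and 1 of them was at such a start. Over all 11106 peaks 6.83% reached 3 kb, so the absence of such peaks among 6 cannot be read as a trait of let-7. Of all peaks, 3382 had a midpoint more than 3 kb from every protein-coding start. The share of all peaks within 1 kb of a start is not given here, so these counts stand without it.

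Mirlet7i (chr10:122985640-122985724, minus strand) had the nearest let-7 peak, chr10:122986731-122987125, which was 395 bp wide and 1007 bp upstream. It lay 176 bp from the start of D630033A02Rik, an annotated pseudogene transcript that contains Mirlet7i. The E-box printed above, chr10:122986769-122986774, lies in this peak, 1045 bp from the hairpin.

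Mirlet7a-1, Mirlet7f-1 and Mirlet7d form a cluster (chr13:48536012-48538272, minus strand) with 1 peak upstream, chr13:48544745-48545762, 1018 bp wide. It was 6473 bp from Mirlet7a-1, 6828 bp from Mirlet7f-1 and 8631 bp from Mirlet7d. The peak lay inside the non-coding host 6720427I07Rik, 738 bp from its start.

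Mirlet7e (chr17:17830352-17830444, plus strand), in the sperm gene Spaca6, was flanked by peaks on both sides. The upstream peak, chr17:17827864-17828598, was 735 bp wide, 1754 bp from Mirlet7e and 540 bp from a Spaca6 start. The downstream peak, chr17:17838414-17839340, was 927 bp wide, 7970 bp from Mirlet7e and contained another Spaca6 start. The neighbours Mir99b and Mir125a in the same transcript were 1590 and 2214 bp from a peak.

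Mirlet7g (chr9:106178840-106178927, plus strand), in Wdr82, a subunit gene of a histone methyltransferase complex, also had a pair of upstream peaks. The nearer, chr9:106170142-106172481, was 2340 bp wide, the widest near a let-7 gene, contained the Wdr82 start and was 6359 bp from Mirlet7g. The farther, chr9:106159605-106160700, was 1096 bp wide, 18140 bp away and 1467 bp from a start of Glyctk, a glycerate kinase gene.

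**Figure D3:**
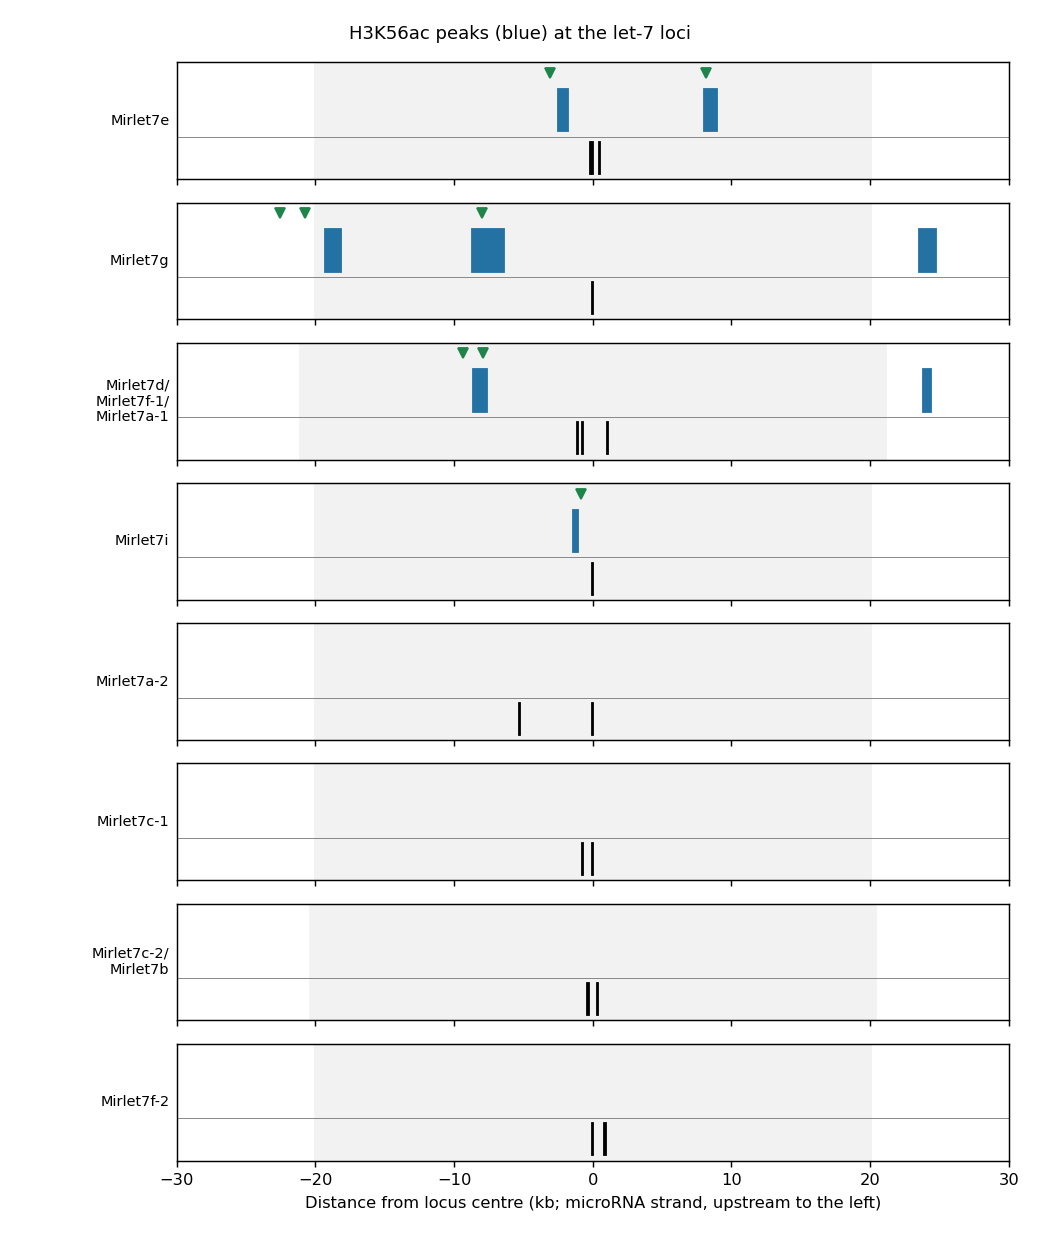
H3K56ac peaks (blue boxes) around the 8 let-7 loci by distance from the locus centre (kb, in the direction of the microRNA strand). Black boxes are microRNA hairpins including neighbours in the same transcript, green triangles are annotated starts within 5 kb of a member peak, and light shading is the locus and 20 kb on either side. Mirlet7e, Mirlet7g, the Mirlet7d locus and Mirlet7i have peaks within 20 kb, none over a hairpin, and the other 4 loci have none. Boxes outside the shading are peaks beyond 20 kb.

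The let-7 genes without a peak within 20 kb were Mirlet7c-2 and Mirlet7b on chromosome 15 (105054 and 104348 bp), Mirlet7c-1 on chromosome 16 (215247 bp), Mirlet7a-2 on chromosome 9 (398122 bp) and Mirlet7f-2 on the X chromosome (103243 bp). Mir100 and Mir99a, which lie beside Mirlet7a-2 and Mirlet7c-1 on the same strand, were likewise far, at 403429 and 215997 bp.

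All 8 let-7 loci lay within an annotated transcript on the same strand, and in a comparison added after these values were seen the starts of those host transcripts were examined. At 5 of the 8 (62.5%) a peak reached to within 1 kb of a host start, at 176 bp for Mirlet7i, 738 bp for the Mirlet7d locus, 540 bp for Mirlet7e and 0 bp for Mirlet7g and Mirlet7f-2. Of 944 microRNA loci inside a host transcript on the same strand, 43.4% had such a peak. Mirlet7f-2 was the locus that differed from the count by distance: its host Huwe1, a ubiquitin ligase gene, had a peak of 2292 bp at its start, 109103 bp upstream of the hairpin. At the other 3 loci no host start (Lncppara, Mir99ahg, 3110039I08Rik or Gm49317) was nearer than 107978 bp to a peak.

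Summed over the windows of 20 kb on either side, 14.8% of 126527 bp around the stem cell loci and 2.01% of 323601 bp around the let-7 loci were in peaks, against a mean of 1.90% over all microRNA loci and 0.545% of the assembled genome. The let-7 share was thus near that of microRNA loci in general, and without peaks at protein-coding starts it was 0.775%. The Mir290 to Mir295 cluster held 82.8% of the summed width of the stem cell peaks, and without it the stem cell share was 3.82%. Among let-7 loci with a peak the shares were 8.57% for Mirlet7g, 4.15% for Mirlet7e, 2.41% for the Mirlet7d locus and 0.985% for Mirlet7i. The range of the let-7 loci therefore overlaps that of the Mir302 cluster and Mir17hg, and only the Mir290 to Mir295 cluster lay above every let-7 locus.

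**Figure D4:**
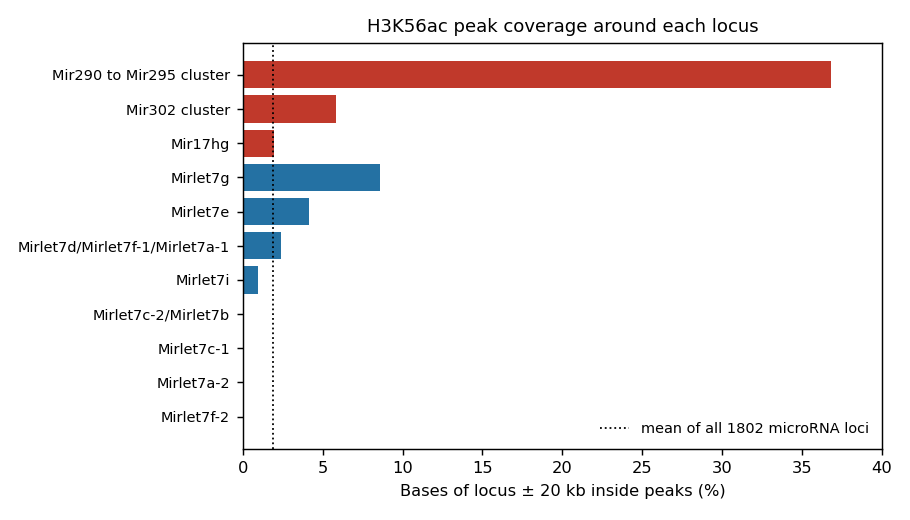
Share of bases in H3K56ac peaks (horizontal axis, %) within 20 kb of each of the 3 stem cell loci (red bars) and 8 let-7 loci (blue bars), with the mean of 1802 microRNA loci as a dotted line. The Mir290 to Mir295 cluster is at 36.8%, the next highest, Mirlet7g, at 8.57%, and 4 let-7 loci are at 0.

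Many microRNAs lie in protein-coding genes whose starts carry the mark, which bears on any count by distance. Of 1073 microRNA loci overlapping a protein-coding gene, 42.0% had a peak within 20 kb, and of the 729 others 18.5% did. Mir17hg is outside protein-coding genes, the Mir290 to Mir295 and Mir302 clusters and Mirlet7c-1 are each opposite one, and Mirlet7e, Mirlet7g and Mirlet7f-2 are inside one on the same strand. The part of these neighbours in the distances of the members was not tested.

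The peaks at the Mir290 to Mir295 cluster were in the lower part of the range of GC content and CpG among all peaks. From upstream to downstream their GC content was 45.6%, 44.7% and 48.1%, above 14.8%, 11.4% and 27.2% of all peaks, and their ratio of observed to expected CpG was 0.203, 0.229 and 0.439. The upstream and middle peaks were 45.6% and 36.8% repeat-masked, above 95.8% and 93.8% of all peaks, and the downstream peak 15.1%. Only reads with a single reportable position were kept by the authors, which can thin coverage in repeats.

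The Larp7 and Zgrf1 peak had a GC content of 48.4% over its whole width, above 28.9% of all peaks and like that of the downstream Mir290 to Mir295 peak, and a CpG ratio of 0.695. The Wdr82 peak had a CpG ratio of 0.728. The Mir17hg peak had a GC content of 47.5% and a CpG ratio of 0.504, near the middle of all peaks for CpG. The peak with the lowest GC content among the members was that of Mirlet7i at 40.5%, and the highest was the upstream Mirlet7e peak at 59.5%.

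**Figure D5:**
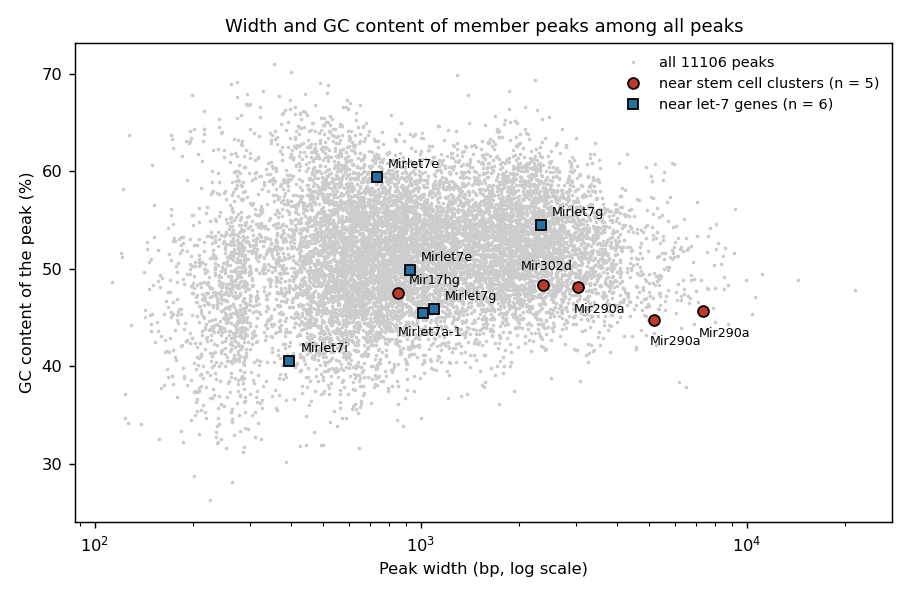
Width (horizontal axis, bp, log scale) and GC content (vertical axis, %) of all 11106 H3K56ac peaks (grey points), the 5 peaks near stem cell clusters (red circles) and the 6 near let-7 genes (blue squares), each named by its nearest member gene. The 3 Mir290a peaks lie at 3030 to 7316 bp and 44.7 to 48.1% GC, and every let-7 peak is at 2340 bp or less.

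Short motifs were searched on both strands in the 400 bp around each midpoint, and a match is only a match of letters. Among all peaks the share with a match was 1.5% for the octamer ATTTGCAT, 1.01% for the ESRRB motif TCAAGGTCA and 9.37% for the KLF motif CCCCACCC. It was 9.09% for the MYC E-box CACGTG, 1.64% for the STAT motif TTCCNGGAA and 9.18% for the AP-1 motif TGANTCA. No motif matched in these windows of the 3 Mir290 to Mir295 peaks or of the Mir302 peak.

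Over their whole width the 3 Mir290 to Mir295 peaks held 1 octamer, 7 KLF, 5 E-box, 1 STAT, 2 AP-1 and 0 ESRRB matches. Per kb this was 0.0644 octamer matches against 0.0435 over all peaks, 0.451 against 0.298 for KLF and 0.129 against 0.253 for AP-1. Over their whole width the 6 let-7 peaks held 0 octamer, 4 KLF, 1 E-box, 0 STAT, 2 AP-1 and 2 ESRRB matches. Their rates per kb were 0.614 for KLF, 0.307 for AP-1 and 0.307 for ESRRB. Over all peaks the ESRRB rate was 0.0301 per kb. The octamer, printed above on the plus strand as its reverse complement ATGCAAAT (chr7:3213805-3213812), was 4814 bp upstream of Mir290a. In the Mir17hg peak a KLF match (chr14:115042866-115042873) ended 6 bp before the annotated start and an E-box (chr14:115042889-115042894) lay just after it, within the capitals printed above. A KLF match was found in the windows of 4 of the 6 let-7 peaks, those of Mirlet7e and Mirlet7g. It was found in 1 of the 5 stem cell peaks and in 9.37% of all peaks. Peaks beside the same gene are not independent of each other.

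The genes that process microRNAs were then counted by peaks at their own starts. Of the 24 genes on the list, 20 (83.3%) carried H3K56ac within 1 kb of a transcript start, against 35.7% of all protein-coding genes. Among the nuclear steps, Drosha, Xpo5 and Ran had a peak on a start and Dgcr8 1 at 207 bp. Dicer1, which cuts the hairpin loop, had a peak of 1982 bp on a start, while its partner Tarbp2 was 7493 bp from one. Of the Argonaute genes, whose proteins carry the mature strand, Ago1, Ago2 and Ago3 had such a peak and Ago4 was 22922 bp from one. Of the genes for their silencing partners, Tnrc6b and Tnrc6c had one and Tnrc6a did not, at 25679 bp. The helicase gene Ddx17 was 28923 bp from a peak, while Ddx5 had a peak of 3806 bp on a start.

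The listed genes that hold back let-7 in stem cells all had a peak within 1 kb of a start. In the whole list the share was 83.3%, and over all protein-coding genes 35.7%. Lin28a, whose protein binds the let-7 precursor loop, had a peak of 2310 bp on a start, and Lin28b a peak of 319 bp at 376 bp. Tut4 and Tut7, which add uridines to the bound precursor, had peaks at 566 and 0 bp, and Dis3l2, the exonuclease that then degrades it, had one at 0 bp. Trim71, a let-7 target expressed in stem cells, had one at 3 bp. Khsrp, whose protein promotes let-7 maturation, also had one, at 425 bp.

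Tissue microRNAs were set beside the members as genes that are little used in stem cells. Of 17 such genes 6 had a peak within 20 kb, and of their 13 loci 4 did, shares near the 31.1% of all genes of type miRNA and the 32.5% of all microRNA loci. Those with a peak were the muscle pair Mir206 and Mir133b (12309 and 16068 bp), neural Mir124a-1 (2790 bp), blood Mir142 (18400 bp) and the pair Mir143 and Mir145a of fibroblasts and smooth muscle (7077 and 5706 bp). Liver Mir122 was 181298 bp from a peak, and the Mir9 genes 60496 to 483368 bp.

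Marker genes were counted to check the label of the cells, since feeder fibroblasts can be carried into a stem cell culture. All 8 embryonic stem cell markers had a peak within 1 kb of a start, against 35.7% of all protein-coding genes. Among the 8 were Pou5f1 (peak 6152 bp wide), Nanog (2924 bp) and Sox2 (9909 bp). None of the 12 fibroblast markers had a peak within 1 kb of a start, and their nearest peaks were 36436 bp (Thy1) to 842448 bp (Lum) away. At Mir143 and Mir145a, which fibroblasts express, 3 and 4 peaks lay within 20 kb, where 5.16% of microRNA loci had at least 3. The share of bases in peaks within 20 kb of their joint locus was below the 36.8% of the Mir290 to Mir295 cluster. That share was above those of the Mir302 cluster (5.84%), Mir17hg (1.95%) and every let-7 locus (at most 8.57%). The source of these peaks was not tested.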

How the data were processed

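Undifferentiated V6.5 mESCs, Scramble or Sirt6 KD, gave 4 H3K56ac and 2 input libraries, grouped by their titles. The authors trimmed the reads, aligned them to mm10 with bowtie keeping uniquely placed reads, removed duplicates, called peaks with MACS2, removed blacklisted regions and merged the peaks. The deposited file held merged peak positions and a score that was 0 throughout and was not used. Merging removes peak height and origin, so depth and groups could not be used, and unique alignment can leave repeats without coverage. The submitters' processing notes also name FastQC, SAMtools and deepTools.

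Starts, counted from 0 in the file, are printed counted from 1. Distances ran from peak edge to gene edge unless a midpoint is named. Genes and TSS came from GENCODE M21 on GRCm38, and sequences and repeat masking from the RefSeq copy of that assembly. Genes of a kind closer than 10 kb were joined into loci, peaks within 20 kb of a gene were counted, and coverage was the share of bases in peaks within 20 kb. No test was made. Members, lists and motifs were chosen with earlier results of these data known. Named genes were the members, microRNAs within 10 kb on the same strand, the nearest protein-coding start of each member peak and the genes of the fixed lists. Alternatives, 6 in number, changed the distance limit, used peak midpoints, dropped peaks under 500 bp or at protein-coding starts, or replaced Mir17hg by its hairpins, and 1 on host starts was added after the data were seen. Python 3.11.15, numpy 2.4.6, scipy 1.17.1, pandas 2.3.3 and matplotlib 3.10.9 were used. The distance, counting, coverage and joining steps were tested on simulated positions and recovered 100 of 100 placements each.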

Additional observations from a re-analysis of the deposited data

How the results depend on the processing

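No paired analysis was possible because positions merged over all libraries carry no replicate number. Leaving out a replicate was not possible for the same reason, nor could a stricter peak threshold be tried, since the score was constant. Of 45 values under alternatives, 35 stayed within 1.5 times the reported value. These include let-7 values that replacing Mir17hg by its hairpins cannot change. The fall from 3 to 2 stem cell loci without peaks at protein-coding starts also counts as within that limit. The tally is therefore no measure of robustness. With a limit of 50 kb, coverage fell to 6.34% at the stem cell loci and 1.17% at the let-7 loci, and the let-7 peaks numbered 10. With 10 kb, let-7 coverage was 3.31%. Without peaks at protein-coding starts, 3 let-7 peaks remained, with coverage of 0.775% and a median distance of 123938 bp, and 2 of 3 stem cell loci kept a peak. With peaks of at least 500 bp the median let-7 distance was 127450 bp, since the nearest peaks of Mirlet7i (395 bp), Mirlet7b (427 bp) and Mirlet7c-1 (173 bp) are narrower. The median distance of the stem cell loci, 0 bp as reported, was 191 bp to midpoints and 557 bp with the hairpins in place of Mir17hg. The median distance does not depend on a limit and was not recomputed for 10 and 50 kb. Counting host starts within 1 kb, an alternative added after the data were seen, gave 5 let-7 loci in place of 4. Peak counts carry no depth, so a missing peak may lie below the calling threshold.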
